A study of Mus musculus with 4 samples.

Results

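The matrix metalloproteinases (MMP), the ADAMTS proteases with their ADAMTS-like (ADAMTSL) relatives, and the tissue inhibitors of metalloproteinases (TIMP) were followed in adult bone marrow mesenchymal stromal cells (MSCs). Members were taken by gene symbol, and 51 of the 56980 listed genes carry such a symbol: 23 MMP, 19 ADAMTS, 5 ADAMTSL and 4 TIMP genes. The rule uses the symbol alone. RNA-seq was performed on 4 libraries, each of 100 MSCs sorted from 1 mouse. All 4 mice were male, 14 weeks old, wild-type and of the strain C57BL/6J, bred in-house, so that there is 1 condition and no treated, mutant or control group. The cells were gated as CD45-, Ter119-, CD31- and Sca1- and as positive for CD51 and PDGFRa, which enriches a mixed stromal population and not a single cell type. Since each library is a pool, fewer cells of a type and less RNA per cell cannot be told apart.

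MMPs are zinc-dependent proteases that are made as inactive precursors and, once activated, cut collagens and other matrix proteins. ADAMTS proteases trim procollagens, cut the large proteoglycans of cartilage and process other secreted proteins, whereas ADAMTSL proteins share their ancillary domains and lack the protease domain. TIMPs bind active MMPs and block them, and Timp3 also reaches ADAMTS proteases. In bone, Mmp13 and Mmp14 are known for collagen remodelling by osteoblast-lineage cells, Mmp9 for its production by osteoclasts, and Mmp8 for its storage in neutrophils.

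Total counts per library ranged from 22738604 to 43545349, and mouse 2 stood apart with 16109 genes above 0 against 18683 to 18907 in the other mice. Itgav and Pdgfra, the genes of the antigens selected for, were above 1 TPM (transcripts per 1000000, a level per exon length) in every mouse. Of the antigens selected against, Ptprc and Pecam1 stayed below 1 TPM in every mouse, whereas Ly6a, which encodes Sca1, had 1, 120, 0 and 144 counts in mice 1 to 4. All 5 niche markers and all 4 osteoblast markers passed a median of 1 TPM, and so did 3 of 4 osteocyte markers, with Sost at 0 counts. The summed TPM of the niche markers was 1048, 4633, 2369 and 1231 in mice 1 to 4, and that of the osteoblast markers 108982, 133635, 77792 and 168024. Of the markers of other cell types, 0 of 5 macrophage, 0 of 4 endothelial and 0 of 3 megakaryocyte genes passed, against 3 of 7 neutrophil, 2 of 6 osteoclast, 2 of 5 chondrocyte, 2 of 4 pericyte, 3 of 4 adipocyte and 3 of 3 erythroid genes. The macrophage genes Adgre1, Csf1r and C1qa, the endothelial genes Cdh5 and Kdr and the pericyte gene Acta2 had 0 counts in every mouse. The other macrophage genes were seen mainly in mouse 3: C1qb had 0, 0, 176 and 0 counts in mice 1 to 4, and Cd68 had 11, 0, 144 and 5. Erythroid markers summed to 3725, 21.1, 1298 and 270 TPM.

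Which of the proteases and inhibitors did these MSCs hold transcripts of, and at what level? The threshold for an expressed gene was a median over the 4 mice above 1 TPM, where TPM is the count per exon length, scaled to 1000000 within a library. By that rule 24 of the 51 members (47.1%) were expressed, beside 22.9% of all genes with a length and 44.2% of protein-coding genes, so the share lay near that of protein-coding genes. The 24 comprised 9 of 23 MMP, 11 of 19 ADAMTS, 1 of 5 ADAMTSL and 3 of 4 TIMP genes. Only 16 of the 24 were above 1 TPM in each of the 4 mice. By role, both gelatinases, all 3 procollagen N-propeptidases, 5 of 7 proteoglycan-cutting ADAMTS and 4 of 7 membrane-bound MMPs passed, against 0 of 2 stromelysins and 1 of 8 other secreted MMPs.

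With 3 counts taken as the detection floor, 21 members (41.2%) were detected in all 4 mice, beside 37.5% of protein-coding genes. A further 19 (37.3%) reached 3 counts in 1, 2 or 3 mice, beside 25.1% of protein-coding genes. The remaining 11 (21.6%) stayed under 3 counts in every mouse, beside 37.3%. These were Mmp7, Mmp12, Mmp15, Mmp1b, Mmp20, Mmp24 and Mmp25 among the MMPs, Adamts8, Adamts19 and Adamts20 among the ADAMTS genes, and Adamtsl2. Of them, 8 had 0 counts in every mouse. At this depth 3 counts amount to between 0.0121 and 0.272 TPM for these genes, so lower levels were not detectable. Thinning the counts of each library to the smallest one left an expected 29.0, 27.0, 30.8 and 34 members with 3 counts, against 29, 27, 31 and 34 observed in mice 1 to 4. The counts are of amplified copies, so this thinning cannot show how many molecules of the sorted cells were sampled.

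**Figure D1:**
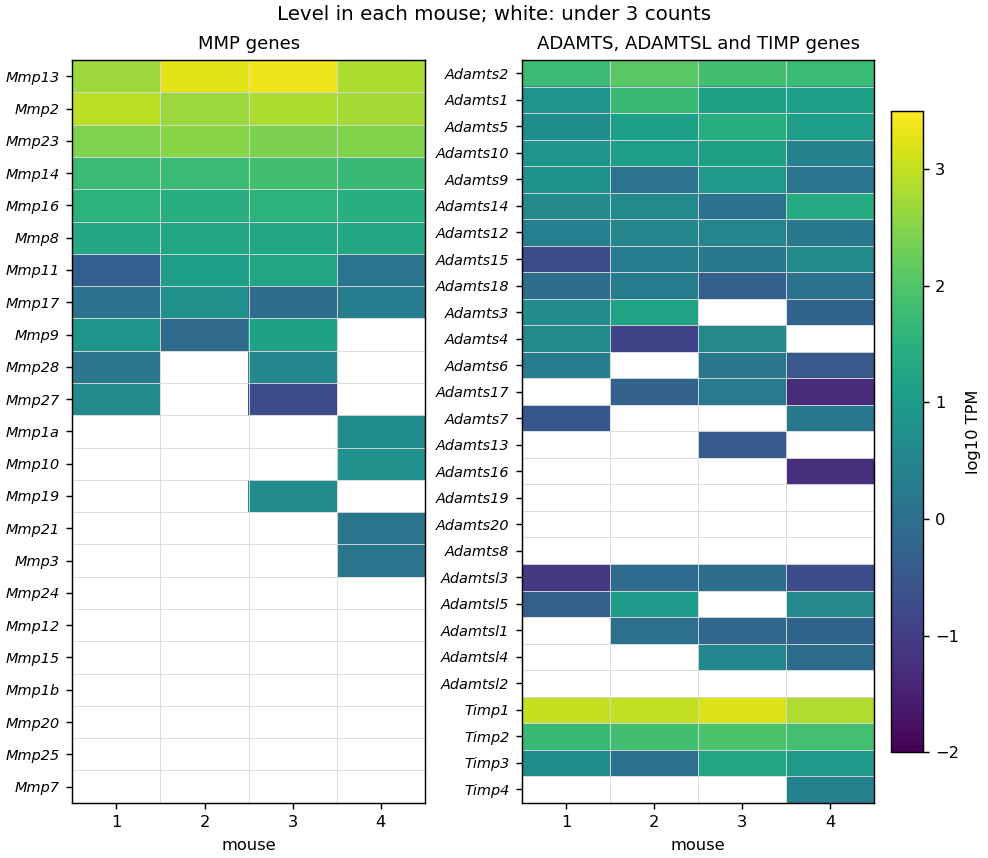
Level of each of the 51 members (rows) in each mouse (columns), as log10 TPM by colour, with white cells for fewer than 3 counts. The upper MMP rows, Adamts2, Timp1 and Timp2 are filled in every mouse, whereas 11 rows are white throughout and many rows in between are filled in some mice only.

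The collagenases cut fibrillar collagen, the main protein of bone matrix, and Mmp13 had the highest mean and median of all members. Mmp13 (ENSMUSG00000050578, chr9:7272514-7283331, plus strand, GRCm38) stood at 502, 1927, 2298 and 669.8 TPM in mice 1 to 4, from 23592, 57307, 106143 and 18502 counts. Its mean was 1349 ± 897 TPM (SD, n = 4), and its median ranked 74 among all genes. It led the members in mice 2 and 3, whereas Timp1 and Mmp2 exceeded it in mouse 1 and Timp1 in mouse 4. Mice 2 and 3 held the 2 highest values, and the coefficient of variation (CV) of 66.5% compares with a median of 19.1% over genes within 2-fold of its level. The niche genes Cxcl12 and Kitl were likewise highest in mice 2 and 3, but Lepr, Foxc1 and Ebf3 were highest in mice 2 and 4. The osteoblast sum, highest in mice 4 and 2, was mostly Bglap, whereas Sp7 and Alpl were highest in mice 1 and 3 and Ibsp in mice 3 and 2. The osteocyte markers summed to 1337, 648, 2246 and 491 TPM, and the part of these cells in the Mmp13 levels was not tested.

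Mmp8, named neutrophil collagenase, gave the opposite picture in spread. It was measured at 20.7, 17.4, 19.8 and 20.9 TPM, with a mean of 19.7 ± 1.59 TPM (SD, n = 4). This CV of 8.06% was the lowest of the 24 expressed members, and the counts of 470 to 881 alone give 3.96%. The neutrophil markers summed to 39.7, 19.7, 6.84 and 7.84 TPM in the same mice. Ltf and Ngp had 0 counts in every mouse, whereas S100a8 was at 11.6, 0, 0.334 and 7.81 TPM, S100a9 at 3.92, 19.6, 2.88 and 0 TPM, and Elane, Camp and Mpo had up to 261, 120 and 52 counts. The part of neutrophil RNA in the Mmp8 level was not tested. Mmp1a, which the annotation lists as a polymorphic pseudogene, had 98 counts in mouse 4, 1 count in mouse 3 and 0 in the other 2, and Mmp1b had 0 in all.

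Mmp13 and Mmp8 lie in a cluster of 10 MMP genes over 427 kb of chromosome 9 (7272514 to 7699585, GRCm38). Within it, these were the genes detected in every mouse. Their neighbours Mmp3, a stromelysin that cuts a broad range of matrix proteins, and Mmp10, the related stromelysin, had 27 and 110 counts in mouse 4 and 0 in the other mice. Mmp27 had 158 counts in mouse 1 and 7 in mouse 3, and Mmp12, Mmp1b, Mmp20 and Mmp7 had at most 1 count. The cluster therefore held both the member with the highest mean and 3 genes, Mmp1b, Mmp20 and Mmp7, with 0 counts in every mouse.

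**Figure D2:**
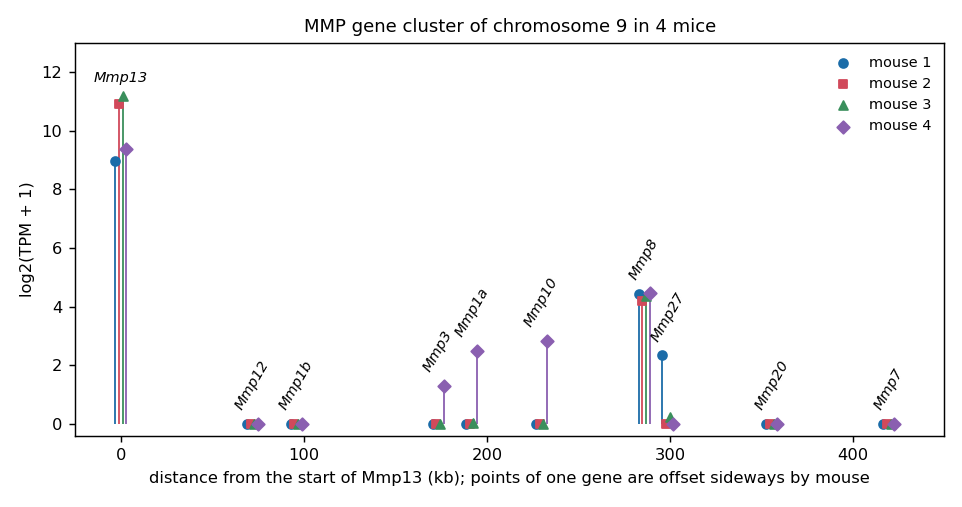
Level of the 10 genes of the chromosome 9 MMP cluster in each mouse, as log2(TPM + 1), against the distance of the gene from the start of Mmp13 in kb, with the symbols of a gene offset sideways by mouse. Mmp13 reaches 2298 TPM and Mmp8 stays between 17.4 and 20.9 TPM in every mouse, while the genes between them are at 0 in most mice.

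The promoters of 4 genes of the cluster are shown because their levels lay so far apart: Mmp13 and Mmp8, present in every mouse, beside Mmp3 and Mmp10, present in mouse 4. Each is the 250 bases before the start on the plus strand of GRCm38.p6, from RefSeq: chr9:7272264-7272513 for Mmp13, chr9:7558179-7558428 for Mmp8, chr9:7445572-7445821 for Mmp3 and chr9:7502092-7502341 for Mmp10. Capitals mark matches to 3 motifs searched on both strands: the AP-1 motif TGANTCA, the RUNX motif TGTGGT, whose reverse complement is ACCACA, and the TATA motif TATAAA.
Mmp13: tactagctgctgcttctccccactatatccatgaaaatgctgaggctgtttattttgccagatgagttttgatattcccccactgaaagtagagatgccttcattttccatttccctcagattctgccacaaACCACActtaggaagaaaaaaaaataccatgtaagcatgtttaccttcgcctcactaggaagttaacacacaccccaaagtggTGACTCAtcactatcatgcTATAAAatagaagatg
Mmp8: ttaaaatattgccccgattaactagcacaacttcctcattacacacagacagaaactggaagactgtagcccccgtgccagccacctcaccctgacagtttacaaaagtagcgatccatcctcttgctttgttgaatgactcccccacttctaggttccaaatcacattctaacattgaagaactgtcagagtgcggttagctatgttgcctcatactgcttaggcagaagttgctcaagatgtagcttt
Mmp3: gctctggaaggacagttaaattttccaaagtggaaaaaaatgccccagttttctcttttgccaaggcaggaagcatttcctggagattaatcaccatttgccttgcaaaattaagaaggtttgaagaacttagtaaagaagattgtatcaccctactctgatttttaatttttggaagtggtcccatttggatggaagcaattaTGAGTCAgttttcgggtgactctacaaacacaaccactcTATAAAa
Mmp10: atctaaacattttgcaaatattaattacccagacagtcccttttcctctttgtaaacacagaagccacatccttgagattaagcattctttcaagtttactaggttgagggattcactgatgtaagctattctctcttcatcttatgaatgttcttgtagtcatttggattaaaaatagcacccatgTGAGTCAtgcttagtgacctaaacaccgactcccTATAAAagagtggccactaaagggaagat
The Mmp13 promoter held all 3 motifs, with the AP-1 match starting 35, the RUNX match 118 and the TATA match 16 bases before the start. Mmp3 and Mmp10 held the AP-1 match at 46 and 63 bases and the TATA match at 7 and 29 bases, and Mmp8 held none of the 3 letter strings. Among 32851 promoters of the same table, 6.75% held the AP-1, 14.0% the RUNX and 12.4% the TATA motif. The promoter of Mmp1b, which had 0 counts, also held all 3. The letters thus did not order the genes by level, and a match is a description and not a bound site. Promoters were found for 36 of the 51 members.

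The gelatinases cut denatured collagen and basement membrane collagen, and the pair differed widely in level. Mmp2 was measured at 911, 477, 658 and 580.8 TPM in mice 1 to 4, with a mean of 657 ± 185 TPM (SD, n = 4) and rank 169 among all genes. It was highest in mouse 1, where Mmp13 was lowest, and lowest in mouse 2. Mmp9 was at 6.95, 0.813, 14.4 and 0 TPM, from 433, 32, 879 and 0 counts. Mmp9 was thus high in mice 1 and 3 and near or at 0 in mice 2 and 4. Its mean of 5.54 ± 6.66 TPM fell to 2.59 without mouse 3, and its median fell below 1 TPM without mouse 1 or without mouse 3. The osteoclast gene Acp5 was at 79.2, 0, 48.2 and 7.58 TPM, and the whole osteoclast list at 683, 274, 548 and 355 TPM, most of it Ctsk. Ocstamp had 53, 0, 0 and 0 counts and Calcr 1, 0, 4 and 2, while Oscar and Dcstamp had 0 counts in every mouse. Erythroid markers were also highest in mice 1 and 3, and the part of these cells in the Mmp9 values was not tested.

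Of the membrane-bound MMPs, which act at the cell surface, Mmp23, Mmp14, Mmp16 and Mmp17 were expressed. Mmp23, an unusual MMP held in the membrane by its N-terminal segment, stood at 277, 329, 265 and 291 TPM (mean 290 ± 27.9 TPM, SD, n = 4). Mmp14, the membrane-bound activator of the Mmp2 precursor, stood at 57.0, 55.7, 69.3 and 51.3 TPM (mean 58.3 ± 7.69 TPM). Mmp16, a close relative of Mmp14, stood at 35.7, 28.5, 36.1 and 29.5 TPM (mean 32.4 ± 4.01 TPM). These 3 varied little: their CVs of 9.60%, 13.2% and 12.3% compare with medians of 22.3%, 34.9% and 39.9% over genes of similar level. Mmp17, a glycosylphosphatidylinositol-anchored MMP, was lower and more variable, at 1.21, 6.04, 0.927 and 2.09 TPM. The summed level of the 7 membrane-bound MMPs was 371, 419, 371 and 374 TPM, a CV of 6.20%, whereas that of the collagenases was 522, 1945, 2318 and 695 TPM. Stretches near-identical to other genes cover 4.23% of the Mmp14 and 2.30% of the Mmp17 transcript. Reads that map to more than 1 place were not counted, and how many were lost there was not tested.

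Among the other secreted MMPs, Mmp11, also called stromelysin-3, passed the threshold with a wide spread. It was at 0.430, 11.8, 17.6 and 1.36 TPM, from 21, 365, 846 and 39 counts, and so was high in the same 2 mice as Mmp13. Its exons overlap those of Chchd10 on the other strand over 5.58% of their length, and without strand the reads of the shared bases cannot be assigned. Chchd10 had 0, 0, 62 and 443 counts in mice 1 to 4, and how far the overlap changed the Mmp11 counts was not tested. Mmp28, an MMP of epithelia, had 103, 0, 238 and 0 counts and stayed below a median of 1 TPM.

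Among the ADAMTS genes, the procollagen N-propeptidases Adamts2, Adamts3 and Adamts14 remove the N-terminal propeptide of fibrillar procollagens. Adamts2 led the whole family at 58.7, 124, 69.1 and 57.0 TPM (mean 77.1 ± 31.4 TPM, SD, n = 4), highest in mouse 2. Adamts14 was at 3.80, 4.0, 1.11 and 24.4 TPM, and its mean of 8.32 ± 10.8 TPM was 2.97 without mouse 4. Adamts3 was at 4.42, 14.5, 0 and 0.552 TPM, with a median that fell below 1 TPM without mouse 1 or without mouse 2. Adamts2 was therefore the N-propeptidase present in every mouse at a high level, and the other 2 were highest in different mice.

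The proteoglycan-cutting ADAMTS genes include Adamts4 and Adamts5, the best known aggrecan-cutting proteases. Adamts1, which cuts versican and aggrecan, was at 7.86, 53.6, 14.0 and 12.9 TPM. Mouse 2 held most of it: the mean of 22.1 ± 21.2 TPM was 11.6 without that mouse. Mouse 2 was also the highest in the niche markers and in the adipocyte markers, which summed to 199, 962, 439 and 234 TPM. The pericyte markers summed to 2.96, 29.6, 2.08 and 11.6 TPM, with Rgs5 highest in mouse 2, Cspg4 lowest there, Myh11 seen in mouse 4 and Acta2 at 0. Their part in the Adamts1 level was not tested. Adamts5 was at 4.82, 12.6, 27.2 and 12.2 TPM (mean 14.2 ± 9.35 TPM, SD, n = 4), highest in mouse 3. Adamts1 and Adamts5 are neighbours on chromosome 16 (85793827 to 85803113 and 85856173 to 85901828, minus strand, GRCm38). Even so, the ratio of Adamts1 to Adamts5 was 1.63, 4.24, 0.514 and 1.06 in mice 1 to 4, so that the order of the pair turned in mouse 3.

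Adamts4 was at 4.16, 0.131, 3.85 and 0 TPM, from 352, 7, 320 and 0 counts, high in mice 1 and 3 as Mmp9 was. Its median fell below 1 TPM without either of these mice. Adamts9 and Adamts15, also able to cut proteoglycans, had medians of 4.02 and 1.83 TPM, while Adamts8 and Adamts20 were not detected. Among the other ADAMTS genes, Adamts10, a microfibril-associated protease, was at 6.91, 11.5, 13 and 2.65 TPM, Adamts12, which cuts cartilage oligomeric matrix protein, at 2.31, 3.19, 3.14 and 1.68 TPM, and Adamts18 at 0.949, 2.15, 0.50 and 1.12 TPM. Adamts12, with a CV of 27.9%, varied the least of the 13 members between 1 and 10 TPM. Adamts6, a relative of Adamts10, had 297, 0, 206 and 28 counts and a median of 0.938 TPM, just below the threshold.

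Adamtsl5, the expressed ADAMTS-like gene, was at 0.469, 10.3, 0 and 3.96 TPM, and it was not above the threshold without mouse 2 or without mouse 4. Adamtsl1, Adamtsl3 and Adamtsl4 were detected in 3, 4 and 2 mice at medians below 1 TPM. Matrix microfibrils are the known partners of several ADAMTSL proteins, and Fbn1, the microfibril gene among the substrates, had a median of 12.8 TPM.

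Of the inhibitors, Timp1 was far above the rest. Timp1 was at 1059, 966, 1535 and 704.7 TPM (mean 1066 ± 347 TPM, SD, n = 4) and ranked 94 among all genes. Timp2, which inhibits MMPs and also bridges Mmp14 and the Mmp2 precursor, was at 51, 70.1, 87.8 and 71.4 TPM (mean 70.1 ± 15.1 TPM). Both were highest in mouse 3, and Timp2 had the lower CV, 21.5% against 32.5%. Timp3, the inhibitor with reach to ADAMTS proteases, was at 4.62, 1.03, 18.5 and 8.94 TPM, and its mean of 8.28 ± 7.57 TPM was 4.86 without mouse 3. Exons of Syn3 on the other strand cover 21.3% of the Timp3 exons. Syn3 had 0 counts in mice 1 to 3 and 143 in mouse 4, against 93 to 2610 counts of Timp3. Reads of the shared bases cannot be assigned without strand, and how far this changed the Timp3 counts was not tested. Timp4 had 158 counts in mouse 4, 1 in mouse 3 and 0 in mice 1 and 2.

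**Figure D3:**
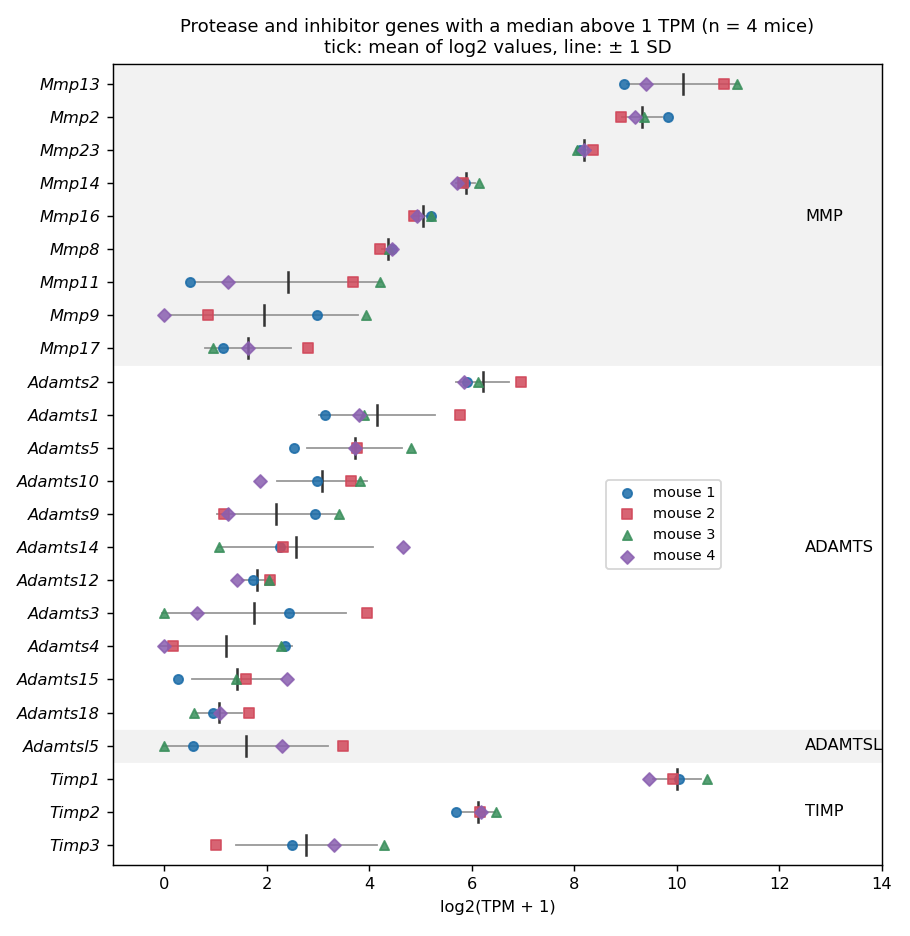
Level of each of the 24 expressed members on a log2(TPM + 1) axis, with 1 symbol per mouse, a tick at the mean and a line of 1 SD to each side (n = 4). The mice nearly coincide for Mmp23, Mmp14, Mmp16 and Mmp8 and lie far apart for Mmp11, Mmp9, Adamts3 and Adamtsl5.

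Does a protease outweigh its partner in every mouse? For 8 pairs of genes with related roles, log2(TPM + 1) was compared mouse by mouse, and the signs of the differences were flipped in an exact permutation test (two-sided). With 4 mice the smallest p that this test can give is 0.125, so no pair can pass 0.05. Every pair had the same order in 4 of 4 mice and a mean difference larger than its SD. Each gave p = 0.125 in the exact permutation test and 0.125 after Benjamini-Hochberg adjustment over the 8. The pairs were chosen with earlier results of these data known, so their shared order is a description only. Mmp2 exceeded Mmp9 by 7.37 ± 1.61 (log2, SD, n = 4), and Timp3 minus Timp1 came to -7.23 ± 1.28, or -4.28 without a gene length. Mmp13 exceeded Mmp14, the membrane-bound protease that also cuts fibrillar collagen, by 4.23 ± 0.99.

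For the activation complex of Mmp2, the transcripts of both partners were scarcer than that of their target, and protein was not measured. Mmp14 minus Mmp2 came to -3.44 ± 0.39 and Timp2 minus Mmp2 to -3.20 ± 0.63 (log2, SD, n = 4). Without a gene length these mean differences were -2.63 and -2.99. The ratio of Mmp2 to Mmp14 in TPM lay between 8.56 and 16. The ratio of Timp2 to Mmp14 stayed between 0.894 and 1.39, and their order depended on the length: with the longest transcript as length, mean Timp2 was 57.6 and mean Mmp14 83.9 TPM. Adamts1 and Adamts5 exceeded Adamts4 by 2.95 ± 2.17 and 2.51 ± 1.64, a size that depends on the pseudocount because Adamts4 was at 0 in mouse 4 (4.41 and 3.93 with 0.1). Adamts2 exceeded Adamts14 by 3.63 ± 1.73. The ratio of Mmp13 to Timp1, a pair outside the 8, ran from 0.474 in mouse 1 to 2.00 in mouse 2. The order of these genes thus changed between mice.

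How was the transcript pool shared among the families? The 51 members together took 3035, 4132, 5182 and 2574 TPM, and 0.319%, 0.483%, 0.532% and 0.323% of the counts of mice 1 to 4. MMP genes summed to 1817, 2854, 3388 and 1660 TPM, a mean of 2430 ± 830 (SD, n = 4). TIMP genes summed to 1115, 1037, 1642 and 788 TPM and ADAMTS genes to 103, 229, 147 and 120.2 TPM. MMPs held 59.9% to 69.1% of the members' TPM, TIMPs 25.1% to 36.7% and ADAMTS genes 2.84% to 5.54%, whereas ADAMTSL genes held at most 0.295%. Without a gene length the order of the TIMP and ADAMTS sums turned, at 541 and 544 counts in 1000000. The ratio of summed TIMP to summed MMP was 0.614, 0.363, 0.485 and 0.474, a mean of 0.484 ± 0.102.

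Single genes set these sums. Mmp13 made up 27.6%, 67.5%, 67.8% and 40.3% of the MMP sum, and Mmp2 made up 50.1%, 16.7%, 19.4% and 35.0%. The leading MMP was thus Mmp2 in mouse 1 and Mmp13 in mice 2, 3 and 4. Timp1 held 89.5% to 95% of the TIMP sum in every mouse. Without Mmp13, the MMP sum was 1315, 927, 1090 and 990 TPM, and its CV was 15.7% in place of 34.2%.

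**Figure D4:**
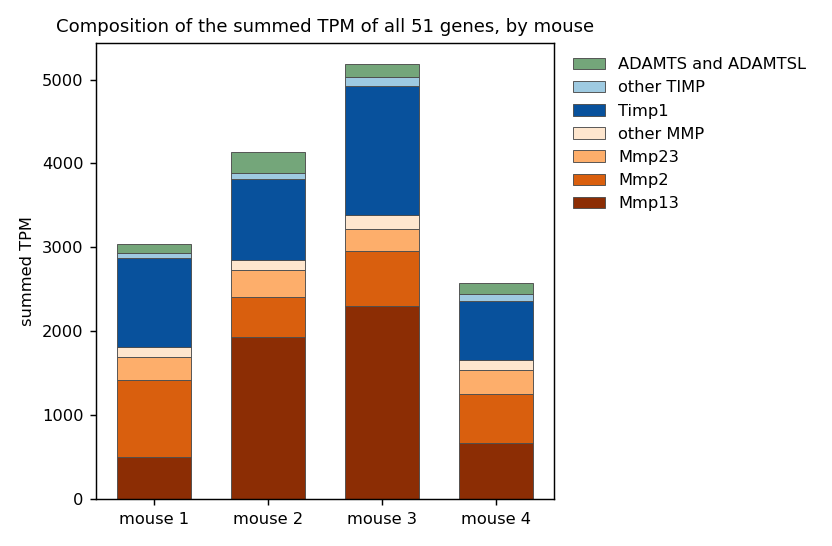
Summed TPM of the members in each mouse, stacked by Mmp13, Mmp2, Mmp23, the other MMP genes, Timp1, the other TIMP genes, and the ADAMTS and ADAMTSL genes together. The Mmp13 portion is smallest in mouse 1 (502 TPM) and largest in mouse 3 (2298 TPM), while the remaining MMP genes together stay between 927 and 1315 TPM.

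How much did a member vary between mice? Over the 24 expressed members the median CV was 66.1%, beside 55.3% over the 9684 expressed protein-coding genes. Above 10 TPM it was 28.1% over 11 members, beside 39.0% over 4804 genes, and between 1 and 10 TPM it was 92.3% over 13 members, beside 76.2% over 4880 genes. Counting alone gives a median CV of 3.20% over the 24 members. Among the 11 abundant members, 5 had a CV below and 6 a CV above the median of genes within 2-fold of their level. Mmp8, Mmp23, Mmp16, Mmp14 and Timp2 were the 5 below, and Mmp13, Adamts1, Adamts5, Adamts2, Timp1 and Mmp2 the 6 above. The highest mouse exceeded the lowest by 1.20-fold for Mmp8 and 1.24-fold for Mmp23, against 4.58-fold for Mmp13, 6.83-fold for Adamts1 and 21.9-fold for Adamts14. Of the 24, mouse 3 was highest in 11 and mouse 2 in 8, against 2 in mouse 1 and 3 in mouse 4. The same count over all expressed genes was not made, so a trait of these members and a difference between whole libraries cannot be told apart.

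**Figure D5:**
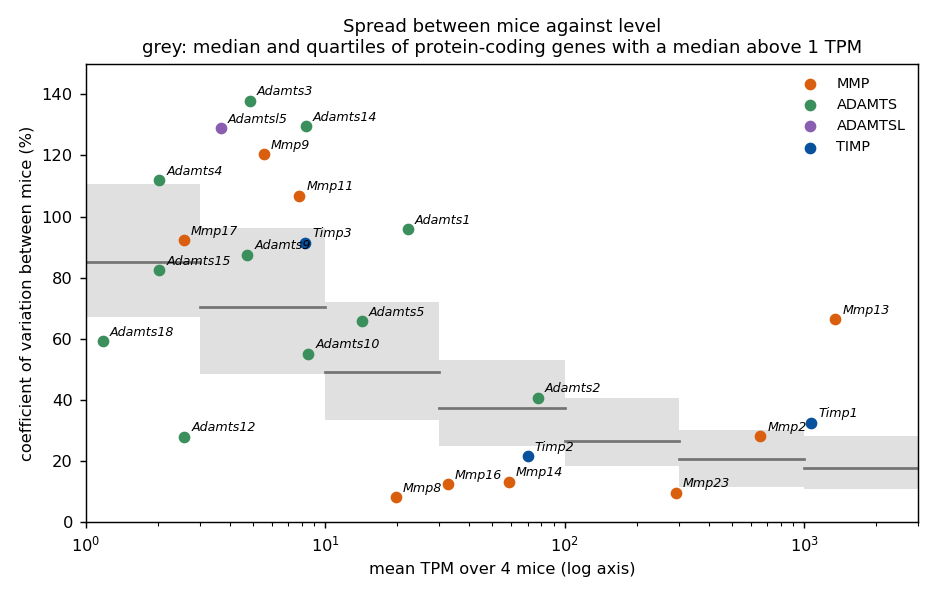
Coefficient of variation over the 4 mice, in percent, against mean TPM on a log axis for the 24 expressed members, with grey lines and boxes for the median and quartiles of expressed protein-coding genes of similar level. Mmp8, Mmp23, Mmp14 and Mmp16 lie well below the other genes of their level, and Mmp13 and Adamts1 lie well above.

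The other genes of the pathway came from a list of 43, of which 28 were above a median of 1 TPM. All 4 proprotein convertases, which remove the propeptide of membrane-bound MMPs and ADAMTS proteases, passed, led by Pcsk6 at 64.1 and Pcsk5 at 18.4 TPM. Of the plasminogen system, another activator of MMP precursors, 2 of 5 genes passed, led by the urokinase receptor gene Plaur at 9.74 TPM. Plg had 0 counts and Plau at most 1 count in every mouse. Among the inhibitors, cofactors and clearance receptors 6 of 8 passed, led by Bsg, the surface inducer of MMPs, at 1031 TPM and Sdc4 at 138 TPM. The membrane-anchored MMP inhibitor Reck was at 8.85 TPM.

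Related proteases and substrates were measured on the same scale. Of the ADAM proteases 5 of 8 passed, led by Adam10 at 28.2 and Adam12 at 19.3 TPM. Of the procollagen C-proteinases and their enhancers 3 of 5 passed, with the enhancer Pcolce at 1290 and the protease Bmp1 at 170.1 TPM. The N-propeptidase Adamts2 thus stood at a lower median, 63.9 TPM, than the C-proteinase Bmp1. Ctsk, a collagen-cutting cathepsin, was at 424 TPM. Of the substrates 7 of 12 passed, led by the collagen I genes Col1a1 at 26909 and Col1a2 at 11533 TPM. The proteoglycan genes Acan, Vcan and Ncan, whose products are cut by Adamts4 and Adamts5, had medians below 1 TPM, and Bcan was at 2.98 TPM from mice 1 and 3, the mice in which Adamts4 was high.

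Some members below the threshold were carried by 1 mouse. By the rule of at least 30 counts and more than 10 times the level of the median mouse, 7 members were of this kind: Mmp27 in mouse 1, Mmp19 and Adamts13 in mouse 3, and Mmp1a, Mmp10, Mmp21 and Timp4 in mouse 4. Their highest counts ran from 33 for Adamts13 to 269 for Mmp19, all above the floor of 3 counts. Mmp19, an MMP of wide tissue distribution, had 269 counts in mouse 3 and 0 in the others, and Tmem198b, whose exons overlap 22.3% of those of Mmp19 on the other strand, had 84 counts in mouse 3 and 4 in mouse 1. Mmp3 and Adamts16 were also limited to mouse 4, with 27 and 4 counts. These genes had means over the mice that a single library set, and their medians were all below 1 TPM. The share of all genes that meet the same rule was not counted, so the 7 cannot be read as a trait of these families. Among protein-coding genes, 25.1% reached 3 counts in only 1, 2 or 3 mice, beside 37.3% of the members.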

How the data were processed

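RNA-seq was performed on 100 sorted MSCs from each of 4 mice, and per the sample titles each column of the deposited table is 1 mouse. The authors deposited raw counts per Ensembl gene. According to the methods specific to MSCs, they aligned read pairs to GRCm39 with STAR 2.7.10 and assigned pairs with a unique position to the exons of Ensembl release 108, using featureCounts of Subread 1.6.5. The options given there name neither a strand nor the counting of a pair for more than 1 gene. Pairs in exons shared by opposite-strand genes can thus be lost to both genes. The submitters' processing notes also list bcl2fastq 2.20.0.

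TPM was computed from the counts in Python 3.11.15 (pandas 2.3.3, numpy 2.4.6, scipy 1.17.1), using the union of the exons of GENCODE M21 on GRCm38 as length. The builds differ, so a gene whose exons changed has a TPM off by the ratio of its lengths, and no coordinates were converted. Left out of the TPM were 4855 genes without a length. No low-count filter was applied. The pseudocount was 1 on the log2 scale. The TPM code was tested on simulated counts with counting error only, and the pair test on fixed values with a known answer. Near-identical stretches were searched with BLAST 2.17.0 at 95% identity over 100 bases. Promoters came from RefSeq, and figures were drawn with matplotlib 3.10.9.

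The depth of 22738604 to 43545349 counts puts 3 counts at 0.0689 to 0.132 when a library is scaled to 1000000 counts. Floors cover counting error only, since amplified copies are not independent molecules.

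All libraries form 1 group, so no groups were compared. The exact permutation test gives p = 0.125 whenever the 4 differences of a pair share a sign, whatever their spread between these 4 mice. Named are all members with a median above 1 TPM, with values per mouse above 10 TPM and for the 8 pairs. Also named are members under 3 counts in every mouse, members that 1 mouse dominates, and the 2 highest genes of each pathway group, except for an item that is not reported here. Other genes named were chosen after their values were seen. Members, lists and pairs were chosen with earlier results of these data known. Alternatives were another length, no length, edgeR 4.0.16 TMM factors in R 4.3.3, a common upper quartile, other cutoffs, another pseudocount and leaving out each mouse.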

Additional observations from a re-analysis of the deposited data

Results flagged for a closer look

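For the 38 members with at least 30 counts in a mouse, and for the family sums, their ratio and the 8 pair differences, the gap between the most extreme mouse and its nearest neighbour was divided by the range of the 4 mice and compared with Dixon's 95% critical value for 4 samples. Of these 51 values, 9 exceeded it, each with a high value in 1 mouse. Chance flags about 1 in 20 such groups only where the values are normally distributed, which was not checked here. The 9 are therefore a description and are not set against that rate.

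Of the expressed members, Adamts1 gave 0.866, with 53.6 TPM in mouse 2 against 7.86 to 14.0 in the others, and Adamts14 gave 0.876, with 24.4 TPM in mouse 4 against 1.11 to 4.0. The other 7 are the members with medians below 1 TPM that were carried by 1 mouse. At 0 or nearly 0 in the other mice, they give a value near 1 whatever their level, so they are listed as a description and not set against chance. Mmp27 gave 0.955, with 4.06 TPM in mouse 1. In mouse 4, Mmp1a gave 0.994 at 4.69 TPM, Timp4 gave 0.996 at 2.59 TPM, and Mmp10 and Mmp21 gave 1 at 6.18 and 1.42 TPM. In mouse 3, Adamts13 and Mmp19 gave 1 at 0.388 and 4.41 TPM. Mouse 4 thus held 5 of the 9, against 1, 1 and 2 in mice 1, 2 and 3. Apart from Adamts14, those of mouse 4 are members carried by 1 mouse. This count was not made over all genes, so a difference between whole libraries cannot be told apart from a trait of these members.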

How the results depend on the processing

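All 72 alternatives of the 8 pair differences kept their direction, but sizes moved: without a length, Timp3 minus Timp1 was -4.28, Adamts2 minus Adamts14 4.66, Adamts5 minus Adamts4 4.14 and Adamts1 minus Adamts4 3.61, and with a pseudocount of 0.1 Mmp2 minus Mmp9 was 8.51, Adamts1 minus Adamts4 4.41 and Adamts5 minus Adamts4 3.93. The count of 24 expressed members was 24 with the longest transcript as length, with TMM factors or with a common upper quartile, 28 without a length, 31 by the mean over mice, 20 with at least 10 counts in every mouse, 16 with every mouse above 1 TPM and 14 at a cutoff of 5 TPM. Leaving out a mouse gave 21 to 24 members. Per family, the mean over mice gave 14 MMP and 2 ADAMTSL genes. With every mouse above 1 TPM there were 7 ADAMTS and 0 ADAMTSL genes, at 5 TPM 4 and 0, and without a length 3 ADAMTSL genes. At least 10 counts in every mouse left 0 ADAMTSL genes, and leaving out a mouse gave 0 to 1. Mmp9 and Adamts4 lost the call without mouse 1 or 3, Adamts3 without mouse 1 or 2, and Adamts18 and Adamtsl5 without mouse 2 or 4, when Adamts6 and Mmp28 gained it. Without the highest gene of each family, the mean sums were 1080 for MMP, 72.8 for ADAMTS and 79.0 for TIMP, and the ratio of TIMP to MMP was 0.0751. Scaled to 1000000 counts without a length, the sums were 544 for ADAMTS, 14.5 for ADAMTSL and 541 for TIMP, so that ADAMTS passed TIMP, and the ratio was 0.181, since longer genes then weigh more. With the longest transcript as length, mean TPM moved by more than 1 SD for Mmp23 (370), Mmp14 (83.9, above Timp2 at 57.6), Mmp16 (43.8), Mmp8 (15.4) and Adamts10 (13.4). Leaving out a mouse moved the mean TPM by over 1.5 times also for Mmp11 (4.53 without mouse 3), Adamts9 (3.09 without mouse 3), Adamts3 (1.66 without mouse 2), Adamtsl5 (1.47 without mouse 2), Adamts4 (1.33 without mouse 1), Adamts15 (1.29 without mouse 4) and Mmp17 (1.41 without mouse 2). Levels below 3 counts, and effects that need p below 0.125, are beyond these 4 libraries.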
